A study of Mus musculus with 7 samples.

Results

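The transcripts described here are those of 8 clock output factors, *Dbp*, *Tef*, *Hlf*, *Nfil3*, *Bhlhe40*, *Bhlhe41*, *Ciart* and *Usp2*. They were chosen by name, as genes whose products act at D-box or E-box elements or follow the clock as its output, out of 21965 genes in the count table. All 8 passed the filter on low counts, which kept 15743 genes. RNA was taken from a 5 mm segment at the centre of the contused spinal cord, at level T9, 3 days (72 h) after a contusion of 50 kdyn. One group was 3 mice labelled *Bmal1*-/- (2 females and 1 male), which carry the germline null allele Arntltm1Bra of *Arntl*, the gene of BMAL1, in every tissue and were bred from heterozygotes. The other group was 4 WT mice (2 females and 2 males). Both groups were on a C57BL/6 background (C57BL/6J by the study's methods), and the study's mice were 8 to 10 weeks old. All were injured, no uninjured or sham cord was sequenced, and each library came from 1 mouse in a morning window of 3 to 5 h after lights on, so neither an injury response nor a daily rhythm of these genes was measured. By the study's account 1 of the 4 WT mice was a littermate of the knockout mice and WT mice were otherwise ordered, so breeding origin and genotype largely cannot be told apart.

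The circadian clock of mammals is a transcriptional loop. BMAL1 pairs with CLOCK or NPAS2, binds E-boxes and drives genes whose products feed back on it. The PAR bZIP activators DBP, TEF and HLF carry this signal on by binding D-boxes, and NFIL3 (E4BP4) represses through the same D-boxes. BHLHE40 (DEC1) and BHLHE41 (DEC2) are repressors that bind E-boxes, and CIART (CHRONO) represses the BMAL1 and CLOCK complex directly. USP2 is a deubiquitinating enzyme whose transcript is rhythmic in many tissues.

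The 250 bases before the annotated starts of these genes held E-boxes in 3 genes and an element of the ROR and REV-ERB receptors in 1. The letters searched on both strands were CACGTG for the E-box, CACGTT for the E′-box, TTATGTAA and TTACGTAA for the D-box, and TAGGTCA for the receptor element (RRE). RefSeq sequence on GRCm38.p6 was at hand for 8 starts of 7 of the genes, all but *Bhlhe40*. *Ciart* held 3 E-boxes, with their first bases 116, 58 and 44 bases before its start. Over 32851 windows of the same length, 6.02% held at least 1 E-box and 0.0609% (20 windows) held 3 or more. *Tef* held 1 E-box before each of its 2 starts, at 127 and 138 bases, and *Bhlhe41* held 1 at 153 bases. *Nfil3* held an RRE on the minus strand relative to the gene, 12 bases before its start, and 2.23% of all windows held one. The windows of *Dbp*, *Hlf* and *Usp2* held none of these letters, which says only that they are not in this stretch, and none of the 8 windows held a D-box (0.819% and 0.113% of all windows for its 2 forms). The stretches that hold the matches are shown 5′ to 3′ on the strand of the gene, because the E-box and the RRE are the sites at which BMAL1 and the REV-ERB receptors are known to act, with the matched letters in capitals.
Ciart, chr3:95882255-95882356, minus strand: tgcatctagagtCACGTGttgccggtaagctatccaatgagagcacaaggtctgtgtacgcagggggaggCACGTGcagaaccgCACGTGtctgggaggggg
Tef first start, chr15:81802534-81802563, plus strand: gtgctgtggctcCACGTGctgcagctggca
Tef second start, chr15:81811264-81811293, plus strand: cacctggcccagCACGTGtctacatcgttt
Bhlhe41, chr6:145865556-145865585, minus strand: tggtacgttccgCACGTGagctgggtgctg
Nfil3, chr13:52981040-52981069, minus strand: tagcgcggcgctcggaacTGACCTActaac
In the GENCODE annotation the stretch of *Ciart* lay outside the gene and that of the second start of *Tef* was intronic. The stretches of *Nfil3* and of the first start of *Tef* lay in an exon, since GENCODE places the start further upstream there. That of *Bhlhe41* had 3 of its 30 bases in an exon. The only *Usp2* window, chr9:44084670-44084919, lay inside the gene, which starts at 44067021 on the plus strand. The 250 bases before that start were not searched. The *Dbp* window, chr7:45704997-45705246, lay partly inside its gene, which starts at 45705088 on the plus strand. A match of letters is a description of the sequence, and no binding was measured.

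**Figure D1:**
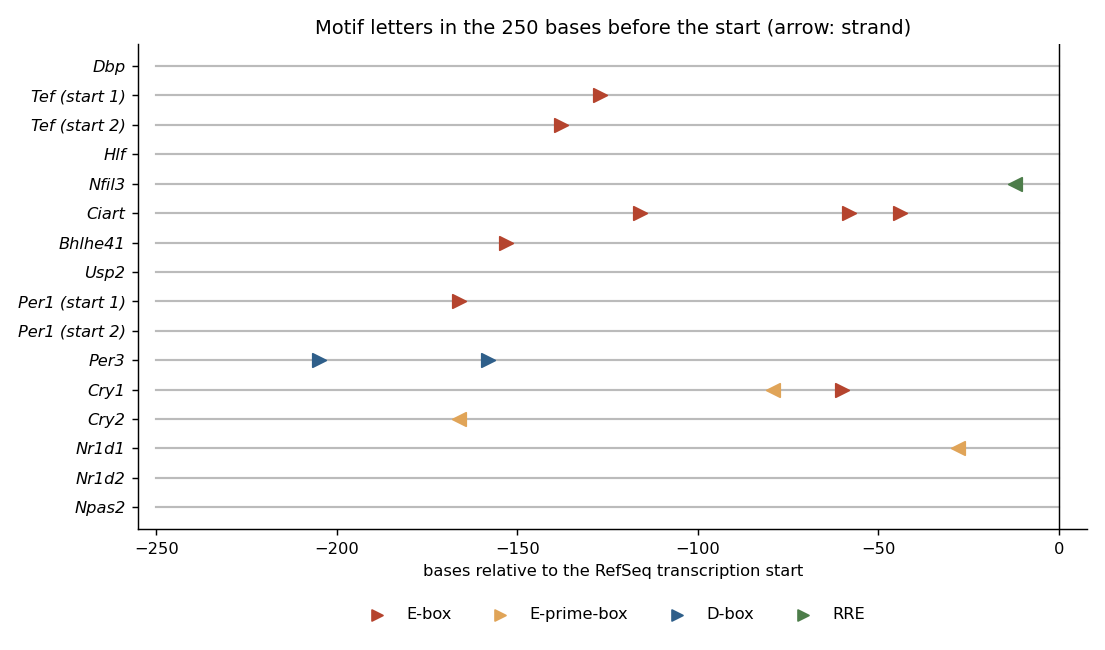
Positions of E-box, E′-box, D-box and RRE letters, as the distance in bases before each annotated start, for the clock output genes with a RefSeq window and for other core clock genes, 1 line per start, with arrows for the strand (CACGTG reads the same on both). *Ciart* carries 3 E-boxes within 116 bases of its start, and the windows of *Dbp*, *Hlf* and *Usp2* hold no match. In the GENCODE annotation the *Usp2* window lies inside its gene and the *Dbp* window lies partly inside its gene.

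The libraries held 38529644 to 44096737 counts, and all values below are CPM (counts scaled by library size and TMM factors) unless named otherwise. *Arntl* itself (ENSMUSG00000055116) had 24.1, 24.2 and 22.5 CPM in libraries labelled *Bmal1*-/- and 14.7, 15.3, 11.9 and 13.4 CPM in WT libraries. So more *Arntl* reads were counted where the label says the gene is null, with a log2 fold change of 0.77 (SE 0.10). The difference passed edgeR's quasi-likelihood test after adjustment by Benjamini-Hochberg (adjusted p = 0.0155), the test behind every adjusted p below. A count over all exons does not resolve a deleted part, so it cannot show whether the allele is null. Leaving out any 1 library labelled *Bmal1*-/-, or WT replicate 4, ended this call. Directions are given for the libraries as labelled. WT replicate 3 lay apart from the other libraries on the first principal components (48.6% and 26.3% of the variance).

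Over the 8 genes, *Dbp*, *Ciart* and *Bhlhe40* passed an adjusted p of 0.05 with lower levels in libraries labelled *Bmal1*-/-, and *Nfil3* passed with a higher level. *Tef*, *Hlf*, *Bhlhe41* and *Usp2* did not pass. Of all genes tested, 0.915% were called lower and 0.654% higher (1.57% together), so 4 of 8 was above the background. The 8 genes were chosen with earlier results of these data known, so comparisons with all genes here are descriptions, not tests. In 5 of the 8 genes all libraries labelled *Bmal1*-/- lay under all WT libraries and in 1 they lay above, where 13.5% and 13.4% of all genes tested did so. The median log2 fold change of the 8 was -0.29, against -0.01 over all genes tested. In tissue RNA, fewer cells of a type and less RNA per cell cannot be told apart.

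**Figure D2:**
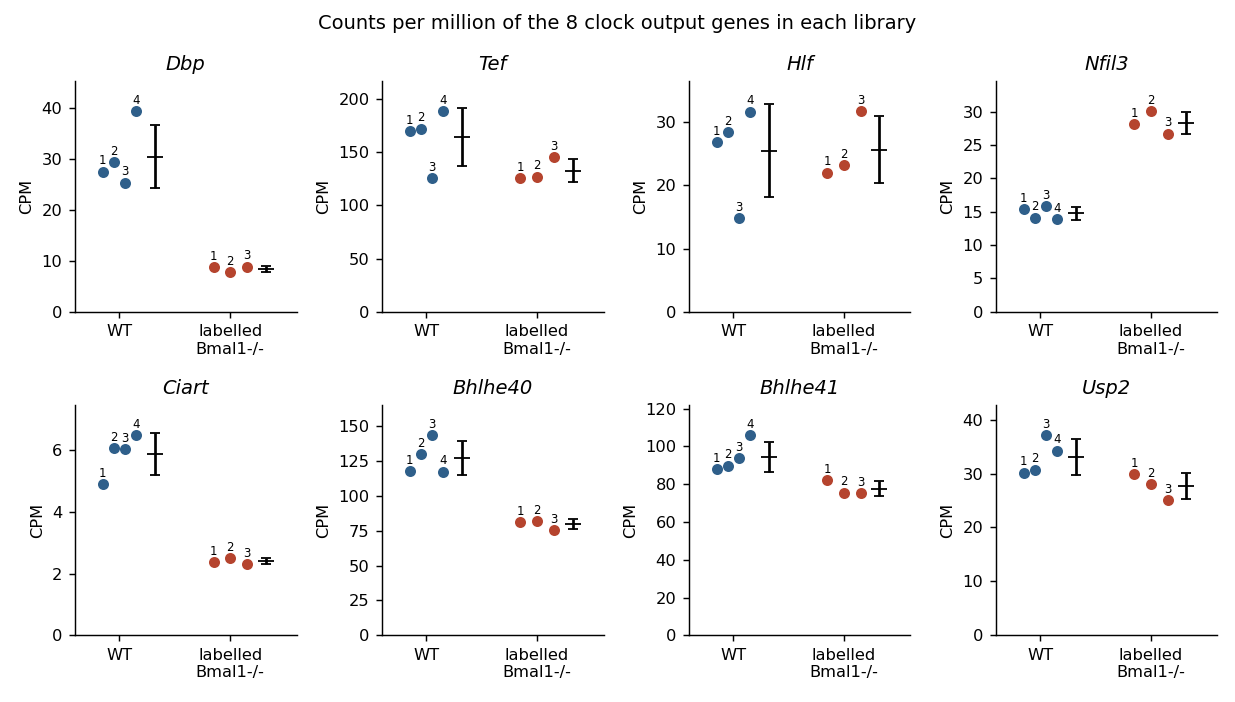
CPM of each of the 8 clock output genes in every library, 1 panel per gene, with numbered points for 4 WT libraries and 3 libraries labelled *Bmal1*-/- and bars for the mean ± SD. The groups are apart for *Dbp*, *Nfil3*, *Bhlhe40*, *Bhlhe41*, *Ciart* and *Usp2*, and they overlap for *Tef* and *Hlf*.

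*Dbp*, the most strongly rhythmic of the PAR bZIP activators in many tissues, had 8.72, 7.80 and 8.83 CPM in libraries labelled *Bmal1*-/- and 27.5, 29.4, 25.3 and 39.3 CPM in WT libraries. All 3 libraries labelled *Bmal1*-/- were far below the lowest WT library, and WT replicate 4 was the highest. Mean levels were 8.45 ± 0.57 (SD, n = 3) and 30.4 ± 6.20 (SD, n = 4), so *Dbp* fell by 72.2%. Its log2 fold change was -1.85 (SE 0.16, 95% interval -2.23 to -1.46, adjusted p = 0.00328), and the call held with each library left out. *Dbp* (ENSMUSG00000059824) lies on chromosome 7 of GRCm38, at chr7:45705088-45710203 on the plus strand, 67497262 bases from *Arntl* on the same chromosome. It shares 539 exon bases with *Sphk2*, a sphingosine kinase gene on the opposite strand. The strand setting of the counting is not given in the sources used here, so reads of this stretch could come from either gene. *Sphk2* itself was at 46.5 ± 1.67 CPM (SD, n = 3) and 47.5 ± 2.87 CPM (SD, n = 4), with a log2 fold change of -0.03 (adjusted p = 0.779).

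*Tef*, whose product binds the same D-boxes as DBP, had 125.7, 127.1 and 145.3 CPM in libraries labelled *Bmal1*-/- and 170.1, 172.3, 125.5 and 188.7 CPM in WT libraries. WT replicate 3 was the lowest of all 7, and the other 3 WT libraries were above every library labelled *Bmal1*-/-. The log2 fold change was -0.31 (SE 0.14, 95% interval -0.63 to 0.02, adjusted p = 0.257). Without WT replicate 3 it was -0.42 and passed (adjusted p = 0.0296), so this library decided the call. *Hlf*, the remaining activator, had 22.0, 23.2 and 31.7 CPM in libraries labelled *Bmal1*-/- and 26.9, 28.4, 14.9 and 31.7 CPM in WT libraries. The groups overlapped over most of their range, and WT replicate 3 was again the lowest. *Hlf* changed sign without this library (-0.18) and without *Bmal1*-/- replicate 3 (-0.17), and neither value passed. With all 7 its log2 fold change was 0.01 (SE 0.26, 95% interval -0.60 to 0.62, adjusted p = 0.984), an interval that leaves room for a change of either sign. *Tef* (ENSMUSG00000022389) lies at chr15:81802421-81826863 on the plus strand and shares 193 exon bases with the antisense gene *Gm17597*, and *Hlf* (ENSMUSG00000003949) lies at chr11:90336536-90390895 on the minus strand with no overlapping gene.

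*Nfil3*, the repressor at D-boxes, moved the other way. Its levels were 28.2, 30.1 and 26.7 CPM in libraries labelled *Bmal1*-/- and 15.4, 14.1, 15.8 and 13.8 CPM in WT libraries. The groups were well apart and each was narrow, at 28.3 ± 1.70 (SD, n = 3) and 14.8 ± 0.95 (SD, n = 4), so *Nfil3* was 91.7% higher. This was a log2 fold change of 0.94 (SE 0.080, 95% interval 0.75 to 1.13, adjusted p = 0.00259), and it was called with each library left out. *Nfil3* (ENSMUSG00000056749) lies at chr13:52967209-52981073 on the minus strand and no annotated gene overlaps it.

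*Ciart*, the gene with 3 E-boxes in its window, was the least abundant of the 8 per length, with 192 to 257 counts in WT and 91 to 108 in libraries labelled *Bmal1*-/-. Its levels were 2.36, 2.51 and 2.31 CPM against 4.90, 6.04, 6.02 and 6.48 CPM. The groups did not overlap, and the libraries labelled *Bmal1*-/- spread by only 0.10 CPM (SD, n = 3). On the log2 scale the fold change was -1.29 (SE 0.14, 95% interval -1.61 to -0.97, adjusted p = 0.00696). The call was lost without *Bmal1*-/- replicate 1 (adjusted p = 0.0622). *Ciart* (ENSMUSG00000038550) lies at chr3:95878503-95882251 on the minus strand, and the antisense gene that overlaps it shares 0 exon bases.

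*Bhlhe40*, the gene of DEC1, had 81.2, 82.0 and 75.5 CPM in libraries labelled *Bmal1*-/- and 117.6, 129.4, 143.5 and 117.2 CPM in WT libraries. The groups did not overlap, and WT replicate 3 was the highest here. The log2 fold change was -0.67 (SE 0.087, 95% interval -0.88 to -0.47, adjusted p = 0.0155). The call was lost without *Bmal1*-/- replicate 1 (adjusted p = 0.0990), without *Bmal1*-/- replicate 3 (adjusted p = 0.0893) and without WT replicate 2 (adjusted p = 0.0504). *Bhlhe41*, the gene of DEC2, had 82.1, 75.6 and 75.1 CPM against 88.0, 89.8, 93.6 and 106.1 CPM. These groups did not overlap either, but the log2 fold change of -0.28 (SE 0.080, 95% interval -0.47 to -0.10) did not pass (adjusted p = 0.133). *Bhlhe40* (ENSMUSG00000030103, chr6:108660629-108666925, plus strand) shares 118 exon bases with the antisense gene *0610040F04Rik*, and *Bhlhe41* (ENSMUSG00000030256, chr6:145858243-145865558, minus strand) shares 1280 with *Gm43909* on the opposite strand, so both counts are uncertain to that extent, and these overlapping genes were not analysed here.

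*Usp2*, the deubiquitinase gene, had 29.9, 28.1 and 25.1 CPM in libraries labelled *Bmal1*-/- and 30.2, 30.7, 37.2 and 34.2 CPM in WT libraries. The groups did not overlap, but the highest library labelled *Bmal1*-/- and the lowest WT library were nearly level. This gave a log2 fold change of -0.26 (SE 0.10, 95% interval -0.49 to -0.02, adjusted p = 0.214). *Usp2* (ENSMUSG00000032010, chr9:44067021-44095627, plus strand) shares 200 exon bases each with *Gm49380*, annotated as protein coding, and *Gm39325*, both on the opposite strand. *Gm49380* was at 0.570 and 0.494 CPM (adjusted p = 0.597), and *Gm39325* was not analysed here.

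**Figure D3:**
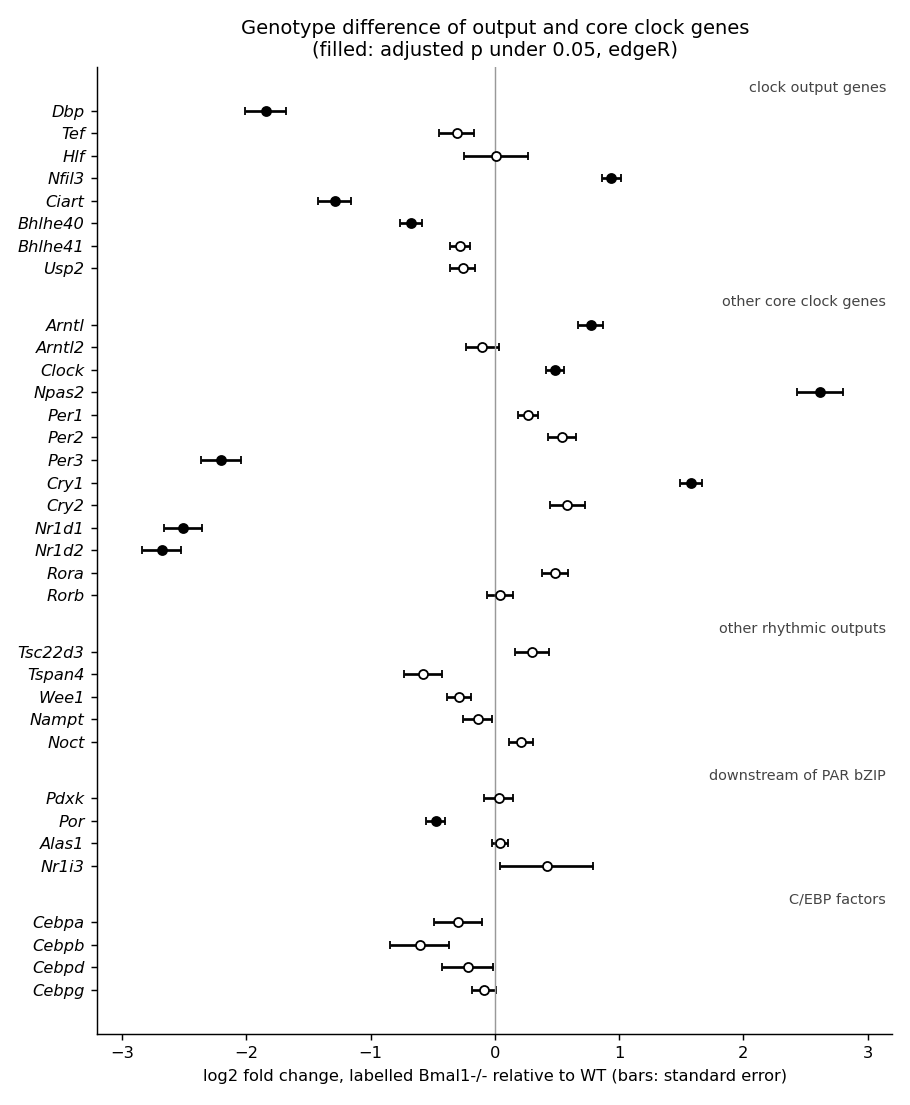
Log2 fold change, libraries labelled *Bmal1*-/- over WT, with bars for its standard error and filled points where the adjusted p from edgeR was under 0.05, for the 8 clock output genes and the reported genes of the related lists. *Dbp*, *Ciart* and *Bhlhe40* lie below 0 and *Nfil3* above it, and *Hlf* lies at 0.01 with a standard error of 0.26.

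Per gene length, the order of the 8 transcripts differed between the groups at a few places. In RPKM, which is CPM divided by exon length in kilobases, the WT order of mean levels was *Bhlhe40* (27.0), *Tef* (20.9), *Bhlhe41* (14.0), *Dbp* (10.1), *Nfil3* (7.30), *Usp2* (6.87), *Hlf* (3.81) and *Ciart* (2.59). The neighbours *Bhlhe41* and *Dbp*, *Nfil3* and *Usp2*, and *Hlf* and *Ciart* overlapped in range. In the libraries labelled *Bmal1*-/- the order was *Bhlhe40* (16.9), *Tef* (16.9), *Nfil3* (14.0), *Bhlhe41* (11.5), *Usp2* (5.75), *Hlf* (3.84), *Dbp* (2.82) and *Ciart* (1.06). Only *Bhlhe40* and *Tef* overlapped there. *Dbp* thus had rank 4 in WT and rank 7 in libraries labelled *Bmal1*-/-, and *Nfil3* had ranks 5 and 3.

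The balance of transcripts for D-box activators and their repressor was computed per length as the sum of *Dbp*, *Tef* and *Hlf* over *Nfil3*. It was 1.59, 1.50 and 1.98 in libraries labelled *Bmal1*-/- and 4.59, 5.16, 3.41 and 6.13 in WT, with means of 1.69 ± 0.26 (SD, n = 3) and 4.82 ± 1.13 (SD, n = 4). The RPKM sum of the activators was 23.5 ± 2.29 (SD, n = 3) and 34.8 ± 6.27 (SD, n = 4). The ratio has no test of its own. *Tef* made up most of the activator sum in both groups, 71.8% and 60.0%, while the share of *Dbp* was 12.04% in libraries labelled *Bmal1*-/- and 29.2% in WT. The ratio of *Bhlhe41* to *Bhlhe40* per length was 0.708, 0.646 and 0.697 in libraries labelled *Bmal1*-/- and 0.524, 0.486, 0.457 and 0.634 in WT. These are ratios of transcript levels, and no protein was measured.

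**Figure D4:**
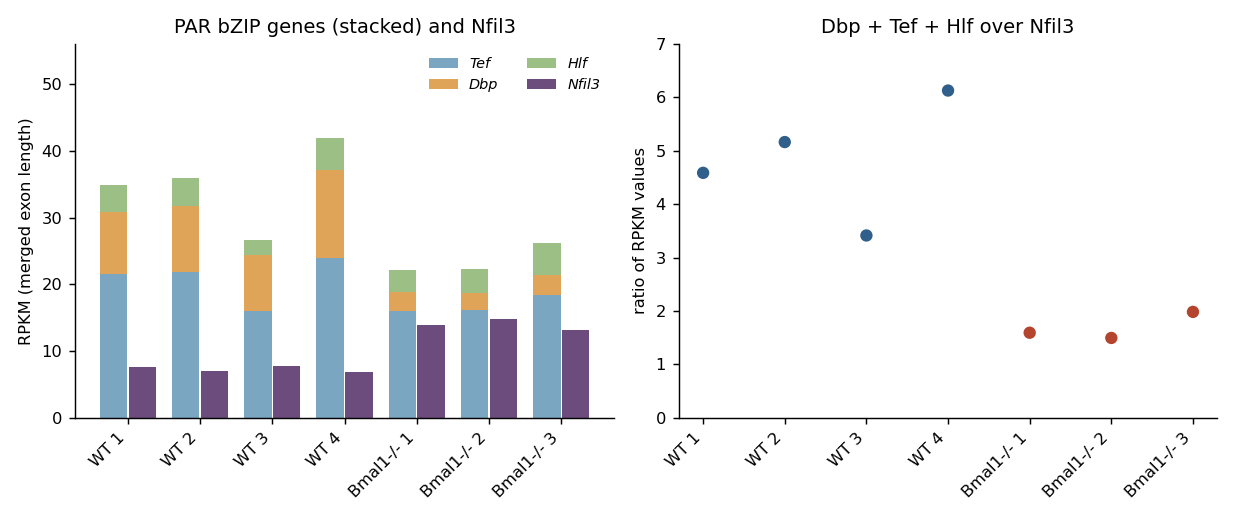
Per-length transcript levels of the D-box activators and of *Nfil3* in each library, and the ratio of the summed RPKM of *Dbp*, *Tef* and *Hlf* to that of *Nfil3*. The 4 WT libraries have ratios of 3.41 to 6.13, all above the 3 libraries labelled *Bmal1*-/-, which have 1.50 to 1.98.

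Females and males were compared within sex as a description, with 1 male labelled *Bmal1*-/-. The log2 ratios of mean levels in females and males were -1.78 and -1.87 for *Dbp*, 0.98 and 0.85 for *Nfil3*, -1.17 and -1.44 for *Ciart*, and -0.60 and -0.79 for *Bhlhe40*. These 4 genes had the same sign in both sexes, as did *Tef* (-0.44 and -0.11), *Bhlhe41* (-0.17 and -0.41) and *Usp2*. *Hlf* had -0.29 in females and 0.45 in males, with an interaction of 0.74 (SE 0.52, adjusted p = 0.474). *Usp2* had -0.07 and -0.51, and its interaction in edgeR did not pass either (unadjusted p = 0.0213, adjusted p = 0.400). With edgeR 0 of 15743 genes had an interaction at an adjusted p under 0.05 (0% of genes tested), and 1934 had an unadjusted p under 0.05.

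The core clock genes around these outputs moved in both directions, 4 higher and 3 lower of 14. The genes with an RRE, at which REV-ERB receptors repress and ROR receptors activate, were mostly higher. Of 5 with a known RRE, 4 were called higher, *Arntl*, *Clock*, *Npas2* and *Cry1*, and 0 lower. *Arntl*, counted here and among the 14 core genes, is the targeted gene itself, and its count does not resolve a deleted part. *Npas2*, the partner of BMAL1 that can stand in for CLOCK, changed by 2.62 (SE 0.19, adjusted p = 0.000918), and *Cry1*, a repressor of the loop, by 1.58 (SE 0.090, adjusted p = 0.000456). Only 2 of these 5 were called when any 1 library labelled *Bmal1*-/- or WT replicate 4 was left out. The REV-ERB genes themselves, *Nr1d1* and *Nr1d2*, fell by 2.51 and 2.68 on the log2 scale (adjusted p = 0.000456 for both). Among the core genes that did not pass, *Cry2* was at 0.58 (adjusted p = 0.0932) and *Arntl2* at -0.10. Without WT replicate 3, 10 of the 14 core genes were called, 7 higher and 3 lower, with *Cry2* (0.47, adjusted p = 0.0176), *Per2* (0.46, adjusted p = 0.0261) and *Rora* (0.40, adjusted p = 0.0178) added, and *Arntl2* was at 0.013.

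Of 6 clock genes with a known E-box, 2 were called lower and 1 higher, with a median of 0.41. Of 7 with a known D-box, the element of DBP and NFIL3, 3 were called lower and 0 higher, with a median of 0.04. Those 3 were *Per3*, *Nr1d1* and *Nr1d2*, and *Per3*, a period gene whose window held 2 D-boxes, fell by 2.21 on the log2 scale (adjusted p = 0.00115). *Per1*, *Per2*, *Rora* and *Rorb* did not pass, at 0.27, 0.54, 0.48 and 0.04 (adjusted p from 0.0688 for *Per2* to 0.840 for *Rorb*). Without WT replicate 3, 5 of these 7 and 4 of the 6 with an E-box were called. The 3 lists share genes, so their counts are not separate evidence.

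Genes further downstream showed few changes. Of 4 enzymes and receptors reported to depend on PAR bZIP factors in liver, only *Por*, the electron donor of cytochrome P450 enzymes, was called, at 104 ± 8.47 CPM (SD, n = 4) in WT and 74.4 ± 3.01 CPM (SD, n = 3) where labelled *Bmal1*-/-. Its log2 fold change was -0.48 (SE 0.078, adjusted p = 0.0355), and leaving out any 1 library labelled *Bmal1*-/-, WT replicate 1 or WT replicate 4 ended the call. *Pdxk*, a vitamin B6 kinase, *Alas1*, the first enzyme of heme synthesis, and *Nr1i3*, a nuclear receptor at 0.536 and 0.401 CPM, were at 0.03, 0.04 and 0.42 and did not pass. Of 5 other rhythmic outputs, *Tsc22d3*, *Tspan4*, *Wee1*, *Nampt* and *Noct*, edgeR called 0, with values from -0.58 for *Tspan4* to 0.30 for *Tsc22d3*. DESeq2 called *Tspan4*, and so did edgeR without WT replicate 3 (-0.43, adjusted p = 0.0443). With edgeR on all 7 libraries, unadjusted p was under 0.05 for *Tspan4* and *Wee1* (0.00649 and 0.0200). It was under 0.05 for 3286 of the 15743 genes tested. Of 4 C/EBP genes, bZIP factors of another family, edgeR and DESeq2 called 0, with values from -0.60 for *Cebpb* to -0.09 for *Cebpg*, and only *Cebpb* had an unadjusted p under 0.05 (0.0364).

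The genes whose levels ran most like each member over the 7 libraries were picked by Pearson's r of log2 CPM, as a description. The 7 points share their genotype groups, so any called gene runs along with another. For *Dbp* they were *Cables1* (r = 0.996), *Per3* (0.995) and *Atp2a1* (0.992), and for *Nfil3* they were *Igfbpl1* (0.997), *Plat* (0.997) and *Fabp7* (0.995). For *Ciart* they were *Gkn3*, *Myh1* and *Trim30d*, and for *Bhlhe40* *Osbpl9*, *Coq10b* and *Prss30*. *Atp2a1* and *Myh1* are genes of skeletal muscle. The genes closest to *Tef*, *Hlf*, *Bhlhe41* and *Usp2* were *Fads2*, *Rere*, *Rnf180* and *Zfp771*, and none of these 4 was called. Among the 8 themselves, *Dbp* ran against *Nfil3* (r = -0.993, n = 7) and with *Ciart* (0.978). *Tef* ran with *Dbp* (0.736) and *Hlf* (0.727) and against *Nfil3* (-0.72).

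Summed markers of skeletal muscle, Schwann cells, neurons, astrocytes and endothelial cells did not overlap between the groups. Sums for the other cell types overlapped. Only the skeletal muscle and endothelial lists held called genes. The summed level of 8 skeletal muscle genes was 6.23 to 8.40 CPM in libraries labelled *Bmal1*-/- against 51.6 to 68.5 CPM in WT, with 7 of the 8 called lower and *Myh4* at 0 in a library. The sum of 3 Schwann cell genes was 3.28 to 9.52 CPM and 19.4 to 235 CPM, with 3 of 3 lower and 0 called. The sum of 7 neuron genes was 3664 to 4469 CPM and 1418 to 3541 CPM, with 7 of 7 higher and 0 called, and WT replicate 3 had the lowest value. It was also the WT library with the lowest *Tef* and *Hlf*. Markers of oligodendrocytes summed to 23043 to 28432 CPM and 23442 to 34466 CPM, with 3 lower, 3 higher and 0 called. Those of astrocytes summed to 14101 to 16782 CPM and 9524 to 13609 CPM, with 2 lower, 4 higher and 0 called. Markers of spinal cord glia were thus present in every library. Sums for 7 microglia and macrophage genes were 2197 to 2750 CPM and 2173 to 3846 CPM, with 6 lower and 0 called, and for 6 endothelial genes 337 to 387 CPM and 400 to 654 CPM, with 6 lower and 1 called. The 5 fibroblast genes were all lower and 0 were called, with a sum of 2213 CPM in *Bmal1*-/- replicate 2, 376 and 298 CPM in replicates 1 and 3, and 1103 to 1817 CPM in WT. The 5 neutrophil genes were also all lower with 0 called, at 24.5 to 53.2 CPM and 30.8 to 110 CPM. The part of these cells in the levels of the clock output genes was not tested.

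**Figure D5:**
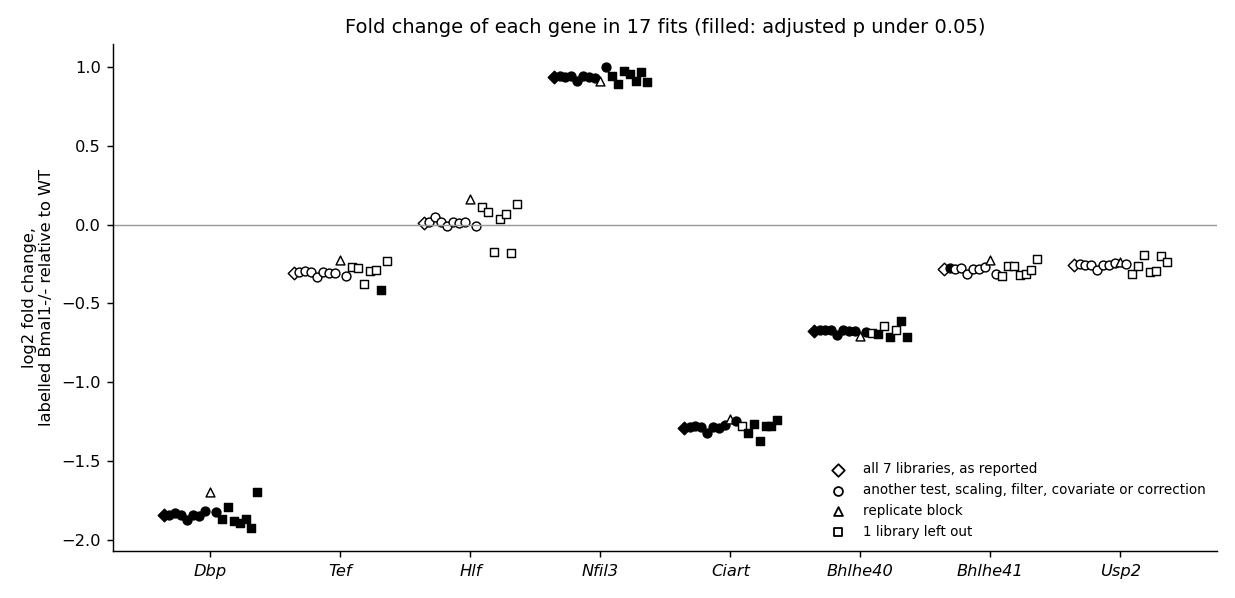
Log2 fold change of each of the 8 clock output genes under every processing alternative and with each library left out, with filled symbols where the adjusted p was under 0.05. *Dbp*, *Ciart* and *Bhlhe40* stay below 0 and *Nfil3* above 0 throughout, while *Hlf* falls on both sides.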

How the data were processed

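Stranded poly-A libraries of 7 mice were sequenced, and the authors aligned reads to GRCm38 (mm10) and counted them per gene with HTSeq 0.10.0 (FastQC 0.10.1 was used for quality). The deposited values are raw counts per gene without normalization. The annotation release and strand setting of the counting are not given in the sources used here. Of 21965 genes, 3039 had no count.

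The groups were taken from the labels. After filterByExpr and TMM scaling, genotype was tested by the quasi-likelihood method of edgeR 4.0.16 under R 4.3.3, and p-values were adjusted by Benjamini-Hochberg over all 15743 genes tested, with a threshold of 0.05. RPKM used the exon length in GENCODE M21, which matched 21939 genes and gave positions and overlaps. Log2 CPM used a prior count of 2. On simulated data with 15653 genes edgeR recovered 97% of genes changed by 2 and 80% of those changed by 1 on the log2 scale, with 9 false calls. The simulated counts were drawn independently per gene and library, and the changed genes had a mean count of at least 10. They hold no library that stands apart as WT replicate 3 does, so these rates may not apply to the real libraries. Counting error is largest for the least abundant member, *Ciart*, with 91 to 257 counts per library. P-values set a difference against the spread between these mice.

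Alternatives were a sex covariate, a block for replicate number, DESeq2 1.42.0, limma-voom (limma 3.58.1), RLE or upper-quartile scaling, no filter or a minimum mean count of 10, subtraction of each library's trend with GC and length, and leaving out single libraries. Alternatives for counts over the gene lists were added after seeing the data. The genes named are the 8 members, *Arntl*, the genes of the lists, genes overlapping a member and the 3 most similar genes to each. 1 gene of the lists is counted in them but is not reported here. The members and lists were chosen with earlier results of these data known. Promoter letters were searched in RefSeq windows. Plots used matplotlib 3.10.9.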

Additional observations from a re-analysis of the deposited data

How the results depend on the processing

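With all 7 libraries and no block, the calls of *Dbp*, *Nfil3*, *Bhlhe40* and *Ciart* held under 8 alternatives, limma-voom, DESeq2, both other scalings, both filters, the sex covariate and subtraction of each library's trend with GC and length. Of 18916 genes with a p-value DESeq2 called 1495 (922 lower and 573 higher), where edgeR called 247 of 15743. DESeq2 added *Bhlhe41* (-0.28, adjusted p = 0.0398) for 5 members. The labels do not pair the mice of the groups, though libraries of the same number share their sex. Deviations of same-numbered libraries from their group means correlated at -0.17, 0.18 and -0.29. With so few libraries these values cannot show whether mice were paired. With a replicate block edgeR called 0 genes and 0 members (1590 genes and 4 members at an unadjusted p under 0.05), with *Dbp* at -1.70, *Nfil3* at 0.91, *Bhlhe40* at -0.71 and *Ciart* at -1.23. That block fits a coefficient for each replicate number, so few degrees of freedom remain. WT replicate 4 has no counterpart and adds nothing to the genotype difference in this fit. DESeq2, with its 1495 calls over all genes, called 12 of the 14 core clock genes (7 with edgeR), 6 of 6 with an E-box (3) and 6 of 7 with a D-box (3). With each library left out, 57 to 730 genes and 2 to 5 members were called, 2 without *Bmal1*-/- replicate 1 and 5 without WT replicate 3. Fold changes then ran from -0.71 to -0.61 for *Bhlhe40*, -1.37 to -1.24 for *Ciart*, -0.42 to -0.23 for *Tef* and -0.18 to 0.13 for *Hlf*. *Hlf* changed sign, to -0.01 with upper-quartile scaling (-0.0118) and with that trend subtracted (-0.0118). Signs also changed for *Arntl2* (-0.18 to 0.013), *Rorb* (-0.031 to 0.11, and -0.058 with the trend subtracted) and *Pdxk* (-0.061 to 0.087), none of them called. The cause was not tested.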
